A study of Mus musculus with 6 samples.

Results

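The genes described here are 9 regulators of the early response: Zfp36, Zfp36l1, Zfp36l2, Btg1, Btg2, Ier2, Ier3, Ier5 and Dusp1. They were chosen by symbol, with their Nrg against vehicle differences in these same libraries known, and all 9 had a value among the 20323 genes measured. Those differences are therefore given as a description, without p-values, and the calls among the members are only counted beside the share over all genes. The table gives them as ENSMUSG00000044786 (Zfp36), ENSMUSG00000021127 (Zfp36l1), ENSMUSG00000045817 (Zfp36l2), ENSMUSG00000036478 (Btg1), ENSMUSG00000020423 (Btg2), ENSMUSG00000053560 (Ier2), ENSMUSG00000003541 (Ier3), ENSMUSG00000056708 (Ier5) and ENSMUSG00000024190 (Dusp1). The RNA came from GFP-labelled cells sorted magnetically from the hippocampus of Nestin-CreERT2;Rosa26-mGFP mice, in which Cre activated by tamoxifen in cells using the Nestin promoter switches on a membrane GFP that their progeny keep. Every mouse ate cuprizone, a copper chelator that strips myelin, for 10 weeks and then recovered for 4 weeks, so no group was free of demyelination. The 3 vehicle mice were given 0.1% bovine serum albumin in saline. The 3 Nrg mice were given neuregulin 1 beta 1 (Nrg-1β1), a ligand of the ErbB receptors, at 60 µg per kg per day in the series description, although the sample labels write the same figure in grams. The series description assigns each library to 1 mouse, and the labels used here hold no age or sex.

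Early response genes are transcribed within minutes of a stimulus without new protein synthesis, and many of their products end the response again. ZFP36, ZFP36L1 and ZFP36L2 are CCCH zinc finger proteins that bind AU-rich elements in the untranslated region of short-lived transcripts and bring in the CCR4-NOT deadenylase, which shortens the poly(A) tail and starts decay. BTG1 and BTG2 bind the deadenylase subunits of the same complex and restrain proliferation, and BTG2 is a known marker of neural progenitors about to make neurons. DUSP1 removes phosphate from MAP kinases. IER2, IER3 and IER5 are small proteins induced by growth factors and stress, of which IER5 is known to work with the heat shock factor HSF1 and IER3 to modulate survival and ERK signalling. In brain tissue such transcripts are also known to be induced by the handling of cells.

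Upstream sequences are shown for 5 members: Zfp36 and Btg2, each beside the paralog that differed far less between the groups, and Dusp1. They are the 200 bases before the annotated start, on the strand of the gene, from RefSeq on GRCm38.p6: chr7:28379229-28379428 (minus strand) for Zfp36, chr12:80113014-80113213 (minus) for Zfp36l1, chr1:134079156-134079355 (minus) for Btg2, chr10:96616801-96617000 (plus) for Btg1 and chr17:26508473-26508672 (minus) for Dusp1. Capitals mark matches to the serum response element (bound by SRF), the cAMP response element TGACGTCA (bound by CREB) or its core TGACG, the AP-1 site TGANTCA (bound by Fos and Jun) and the TATA box TATAAA.
Zfp36: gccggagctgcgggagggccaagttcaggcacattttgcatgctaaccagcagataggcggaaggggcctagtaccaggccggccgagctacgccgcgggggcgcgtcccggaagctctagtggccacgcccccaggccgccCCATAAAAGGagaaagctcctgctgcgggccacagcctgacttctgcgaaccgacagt
Zfp36l1: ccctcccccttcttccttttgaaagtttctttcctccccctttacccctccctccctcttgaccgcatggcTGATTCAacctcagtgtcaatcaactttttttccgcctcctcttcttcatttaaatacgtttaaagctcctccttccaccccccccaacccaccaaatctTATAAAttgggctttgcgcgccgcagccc
Btg2: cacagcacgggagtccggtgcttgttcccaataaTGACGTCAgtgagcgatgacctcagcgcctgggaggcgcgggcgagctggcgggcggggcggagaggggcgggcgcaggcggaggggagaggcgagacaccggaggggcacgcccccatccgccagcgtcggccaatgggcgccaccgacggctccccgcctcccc
Btg1: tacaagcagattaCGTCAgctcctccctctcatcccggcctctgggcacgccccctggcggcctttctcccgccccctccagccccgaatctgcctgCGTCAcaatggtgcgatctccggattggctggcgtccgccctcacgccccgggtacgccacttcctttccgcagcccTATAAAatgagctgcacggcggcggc
Dusp1: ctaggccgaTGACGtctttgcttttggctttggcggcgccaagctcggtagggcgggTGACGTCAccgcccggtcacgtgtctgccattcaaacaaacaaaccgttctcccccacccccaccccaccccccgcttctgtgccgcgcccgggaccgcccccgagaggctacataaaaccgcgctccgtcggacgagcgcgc

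Of the 9 members, 7 had a promoter in the RefSeq table, searched on both strands from 250 bases before to 50 after the start. Zfp36l2 and Ier2 had no entry. The serum response element was found in Zfp36 alone of these 7, beginning 58 bases before the start, and in 1.63% of all 32851 promoters of the same length. The full cAMP response element was found in Btg2, 166 bases before the start, and in Dusp1, 143 bases before it, against 1.79% of all promoters. The core TGACG, which overlaps every full element, was in Btg1, Btg2 and Dusp1, against 20.8% of all. Zfp36l1 had the AP-1 site (7.81% of all), and Zfp36l1 and Btg1 each had TATAAA within 29 bases of the start (13.6% of all). The GC box GGGCGG, left in lower case, was in 6 of the 7, every one but Zfp36l1, against 35.7% of all. Ier3 and Ier5 held none of these motifs except the GC box. These are matches of letters only and show no binding.

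Before the results, the libraries have to be set apart. Whole reads recovered from the values gave 72953034, 1075813 and 47076006 reads for vehicle libraries 1 to 3 and 567073, 662909 and 1327003 for Nrg libraries 1 to 3. Vehicle library 2 was thus close in depth to the Nrg libraries, while vehicle libraries 1 and 3 were far deeper. Reads of Xist, an RNA made from the inactive X chromosome, numbered 3255, 216 and 1045 in vehicle libraries 1 to 3, while the Nrg libraries had 2, 3 and 1. Scaled for depth, the normalized count of Xist was 197.1, 666.8 and 63.2 in vehicle and 10.3, 15.3 and 3.04 in Nrg. That of the Y-linked Ddx3y was 4.96, 3.09 and 120.6 in vehicle and 149.8, 112.4 and 45.6 in Nrg, and Uty, Eif2s3y and Kdm5d were likewise higher in every Nrg library than in vehicle libraries 1 and 2. Vehicle library 3, described as 1 mouse, held both kinds of transcript in number. Xist was thus higher in every vehicle library, library 3 included, than in any Nrg library. The Y-linked transcripts were lower than in every Nrg library in vehicle libraries 1 and 2 but not in library 3. The part of sex-linked transcripts in the members' differences was not tested. For these reasons the members are also given below with vehicle library 2 or 3 alone. In bulk RNA, fewer cells of a type and less RNA per cell cannot be told apart.

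All 9 members had a lower mean in Nrg than in vehicle, but by very different amounts. Zfp36, Ier3, Dusp1, Ier2 and Btg2 differed most, by -1.93 (Btg2) to -3.24 (Ier3) on the log2(normalized count + 4) scale, and Ier5 by -1.01. Zfp36l1, Btg1 and Zfp36l2 differed by -0.36, -0.31 and -0.11. In the fit over all genes (limma, Benjamini-Hochberg adjusted p under 0.05) 5 of the 9 members passed as lower, where 0.625% of all genes did, and 0 passed as higher, where 0.438% did. The groups did not overlap, with Nrg lower, for 6 members and for 10.4% of all genes. The members were picked on this contrast, so nothing is read from these counts. The median difference was -1.93 over the members and 0.03 over all genes. The count of 5 rests on nearly every library: it was 3 without vehicle library 1 and 0 without any other single library, and it was also 0 with limma-voom on the recovered reads.

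**Figure D1:**
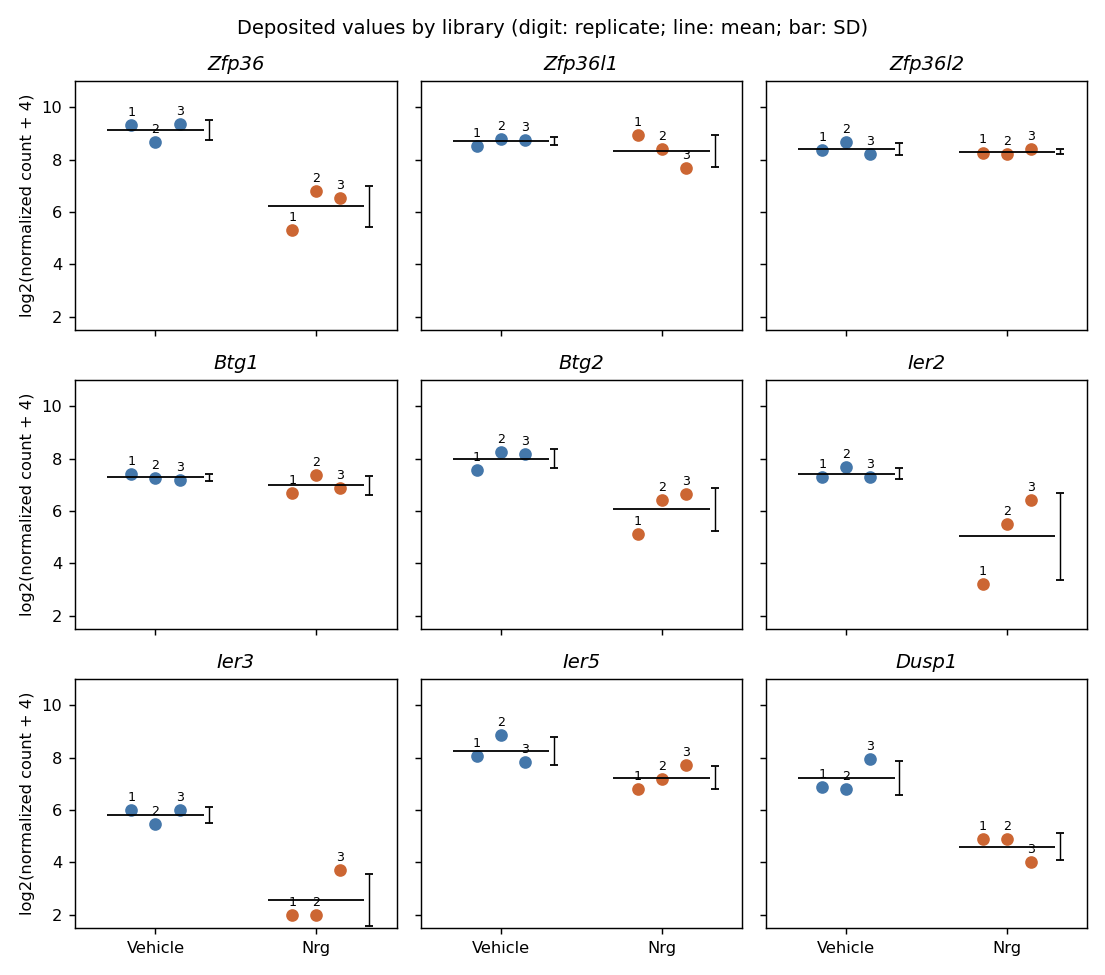
Deposited value, log2(normalized count + 4), of each member in the 3 vehicle and the 3 Nrg libraries; digits are replicate numbers, lines are group means and bars are SD. Zfp36, Btg2, Ier2, Ier3, Ier5 and Dusp1 show groups that do not overlap, while Zfp36l1, Zfp36l2 and Btg1 overlap.

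Among the decay factors, Zfp36 (tristetraprolin) was at 9.33, 8.67 and 9.34 in vehicle libraries 1 to 3 and at 5.33, 6.80 and 6.53 in Nrg libraries 1 to 3. Every vehicle library lay above every Nrg library, with 1.88 between the closest pair, and Nrg library 1 was the lowest. The group means were 9.11 ± 0.38 and 6.22 ± 0.78 (SD, n = 3 each), a difference of -2.90 ± 0.36 (SE). Behind these values stood 10528, 131 and 10652 vehicle reads, against 7, 21 and 29 for Nrg. Zfp36l1 was at 8.52, 8.80 and 8.76 in vehicle and at 8.92, 8.39 and 7.68 in Nrg. Its highest and its lowest library were both Nrg libraries, and the difference of -0.36 ± 0.31 (SE) was no larger than the spread within the Nrg group (SD 0.62, n = 3). Zfp36l2 was the steadiest member, at 8.35, 8.66 and 8.23 in vehicle and 8.27, 8.23 and 8.41 in Nrg, with a difference of -0.11 ± 0.27 (SE). Its sign turned when the libraries were centred on their medians (0.11), which raises the median difference of all genes to 0.25. Exons of Zfp36l1 share 1672 of 2990 bases with Gm26669 on the opposite strand in GENCODE M21, so without a known strand setting its reads and those of Gm26669 cannot be told apart. The like overlaps of Zfp36 with Gm44710 (125 bases), Zfp36l2 with AC132455.1 (105 bases) and Dusp1 with Ergic1 (11 bases) are short.

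The paralogs can be compared inside a library, where the library factor cancels. Zfp36 stood at 48.2% of the reads of the 3 Zfp36 genes in vehicle library 1 (exact 95% interval 47.5 to 48.9), 32.4% in library 2 (27.9 to 37.2) and 47.0% in library 3 (46.4 to 47.7). For Nrg libraries 1 to 3 it stood at 4.40% (1.79 to 8.86), 14.6% (9.26 to 21.4) and 14.1% (9.64 to 19.6). The intervals cover counting error only, and every vehicle share lay above every Nrg share. On the log2 scale, Zfp36 minus Zfp36l1 was 0.81, -0.13 and 0.58 in vehicle and -3.59, -1.59 and -1.15 in Nrg, and Zfp36 minus Zfp36l2 was 0.98, 0.01 and 1.11 against -2.94, -1.43 and -1.89. Zfp36 was thus level with or above its paralogs in the vehicle libraries and below both in each Nrg library. The summed normalized count of the 3 genes was 1313 ± 61.7 in vehicle and 728 ± 98.0 in Nrg (SD, n = 3 each), and Zfp36 made up 82.8% of that gap.

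The Btg pair showed the same split between paralogs. Btg2 was at 7.57, 8.25 and 8.18 in vehicle and at 5.13, 6.42 and 6.66 in Nrg. The groups lay 0.91 apart at their closest, with means of 7.997 ± 0.37 and 6.07 ± 0.82 (SD, n = 3 each) and a difference of -1.93 ± 0.38 (SE). Btg1 was at 7.42, 7.28 and 7.17 in vehicle and 6.67, 7.39 and 6.86 in Nrg, so its groups overlapped, and its difference was -0.31 ± 0.30 (SE). Btg2 took 52.6%, 66.4% and 67.1% of the reads of the pair in vehicle libraries 1 to 3. It took 24.0% (exact 95% interval 9.36 to 45.1), 33.3% (20.4 to 48.4) and 46.4% (34.3 to 58.8) in Nrg libraries 1 to 3, where the pair had only 25, 48 and 69 reads. Vehicle library 1, at 51.3 to 53.9, and Nrg library 3 were the closest, and their intervals overlapped. Btg2 made up 86.9% of the gap between the groups in the summed normalized count, which was 409.8 ± 50.3 in vehicle and 194.7 ± 59.5 in Nrg (SD, n = 3 each).

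**Figure D2:**
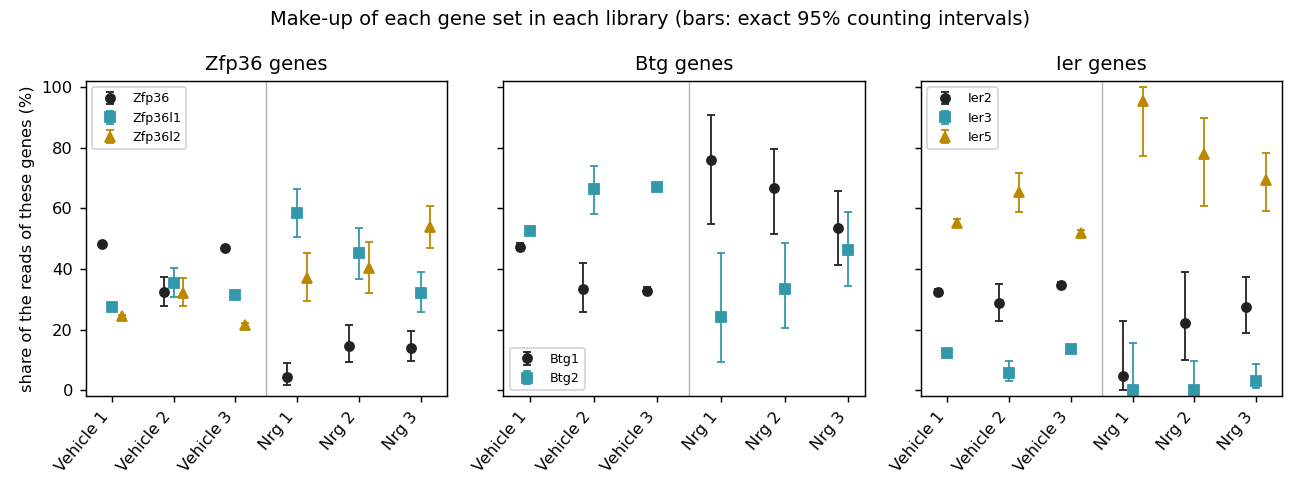
Share of reads (%) that each gene took among Zfp36, Zfp36l1 and Zfp36l2, among Btg1 and Btg2, and among Ier2, Ier3 and Ier5, in each library; bars are exact 95% counting intervals. The Zfp36 share is 32.4% or more in every vehicle library and 14.6% or less in every Nrg library.

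The Ier genes differed in size of change and in how far the Nrg libraries lay apart. Ier2 was at 7.31, 7.68 and 7.29 in vehicle, a range of 0.39, and at 3.20, 5.49 and 6.43 in Nrg, a range of 3.23. The Nrg values rest on 1, 8 and 27 reads, and the difference was -2.39 ± 0.55 (SE), with group means of 7.43 ± 0.22 and 5.04 ± 1.66 (SD, n = 3 each). Ier3 was at 5.99, 5.46 and 5.99 in vehicle and at 2.00, 2.00 and 3.71 in Nrg, where the lowest possible value is 2. Its vehicle reads were 983, 13 and 982, and its Nrg reads 0, 0 and 3. Its pooled level was 14.2 times higher in vehicle, with a 95% counting interval of 4.85 to 68.9. The fitted difference of -3.24 ± 0.57 (SE) depends on the pseudocount, and was -4.62 with a pseudocount of 1. Ier5 was at 8.07, 8.85 and 7.85 in vehicle and at 6.81, 7.20 and 7.72 in Nrg. Its groups did not overlap, but vehicle library 3 and Nrg library 3 were only 0.13 apart, and the difference was -1.01 ± 0.33 (SE). Ier5 kept the largest share of the Ier reads in every library, from 51.7% in vehicle library 3 to 95.5% in Nrg library 1. Shares here and for the Zfp36 and Btg genes are not adjusted for transcript length. Per kb of transcript, Ier2 lay above Ier5 in vehicle libraries 1 (101.7 against 80.9 normalized counts) and 3 (100.2 against 69.3). It lay below Ier5 in each of the others.

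Dusp1, the phosphatase gene, was at 6.89, 6.81 and 7.95 in vehicle and at 4.90, 4.88 and 4.01 in Nrg. Its closest libraries lay 1.91 apart, the widest gap among the members. The means were 7.22 ± 0.64 and 4.60 ± 0.51 (SD, n = 3 each), a difference of -2.62 ± 0.41 (SE), on 1897, 35 and 4034 vehicle reads and 5, 5 and 4 Nrg reads. Zfp36, Btg2 and Ier2 were lowest in Nrg library 1, and Dusp1 had its lowest value in Nrg library 3. In Nrg libraries 1 to 3 the counting intervals of Dusp1 were 8.39 to 60.3, 8.29 to 59.6 and 3.31 to 31.1 normalized counts. These overlapped widely, so the order of Dusp1 among the Nrg libraries cannot be told from counting error. No contrast with the other genes is read from it. Dusp1 minus Zfp36 was -1.89 ± 0.52 in vehicle and -1.62 ± 1.07 in Nrg (SD, n = 3 each), a change smaller than either spread.

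Vehicle library 2 and Nrg library 3 had similar depth, so their raw reads can be set side by side as a description of a pair of mice. They were not alike in sex-linked transcripts, with normalized counts of 666.8 and 3.04 for Xist and 3.09 and 45.6 for Ddx3y. Zfp36 had 131 reads in the vehicle library and 29 in the Nrg library. Dusp1 had 35 and 4, Ier3 13 and 3, Btg2 97 and 32, and Ier2 65 and 27. Ier5 had 148 and 68 reads and Zfp36l1 143 and 66, a lower count in Nrg for both. Zfp36l2, with 130 and 111, and Btg1, with 49 and 37, were the closest. With vehicle library 2 alone against the 3 Nrg libraries, the differences were -2.46 for Zfp36, -2.89 for Ier3, -2.64 for Ier2, -2.21 for Dusp1, -2.17 for Btg2 and -1.60 for Ier5. With vehicle library 3 alone they were -3.12, -3.41, -2.25, -3.35, -2.11 and -0.61 in the same order. All 6 were negative in both settings, as they had to be, because every vehicle library lay above every Nrg library for these 6. Their sign is therefore no check on depth or sex-linked transcripts. Among these 6, the size for Ier5 depended most on which vehicle library was used, relative to its value. Zfp36l1, Btg1 and Zfp36l2 differed by -0.47, -0.30 and -0.36 with vehicle library 2 alone. With vehicle library 3 alone they differed by -0.43, -0.19 and 0.08.

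Per kb of transcript (the RefSeq-matched transcript in GENCODE M21), the order of the members differed between the groups. In vehicle the mean normalized count per kb was 201.4 ± 48.9 for Zfp36, 137.6 ± 14.3 for Zfp36l1 and 111.3 ± 17.8 for Ier2 (SD, n = 3 each). Ier5 (96.6), Zfp36l2 (96.2), Btg2 (93.7) and Dusp1 (78.2) followed without a gap between neighbours beyond their SD. Ier3 (46.9 ± 9.86) and Btg1 (30.6 ± 2.79) came last. In Nrg, Zfp36l1 (112.9 ± 46.8) and Zfp36l2 (88.6 ± 6.13) came first and were not separated by more than their spread. Ier5 (46.6), Ier2 (28.05), Zfp36 (27.66), Btg2 (25.5) and Btg1 (24.9) followed, with no neighbours apart by more than their SD. Dusp1 (10.6 ± 3.93) and Ier3 (2.69 ± 4.65) were lowest. Zfp36, first in every vehicle library except library 2, where Zfp36l1 was at 147.6 and Zfp36 at 144.9, thus held place 5 in Nrg by its mean.

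**Figure D3:**
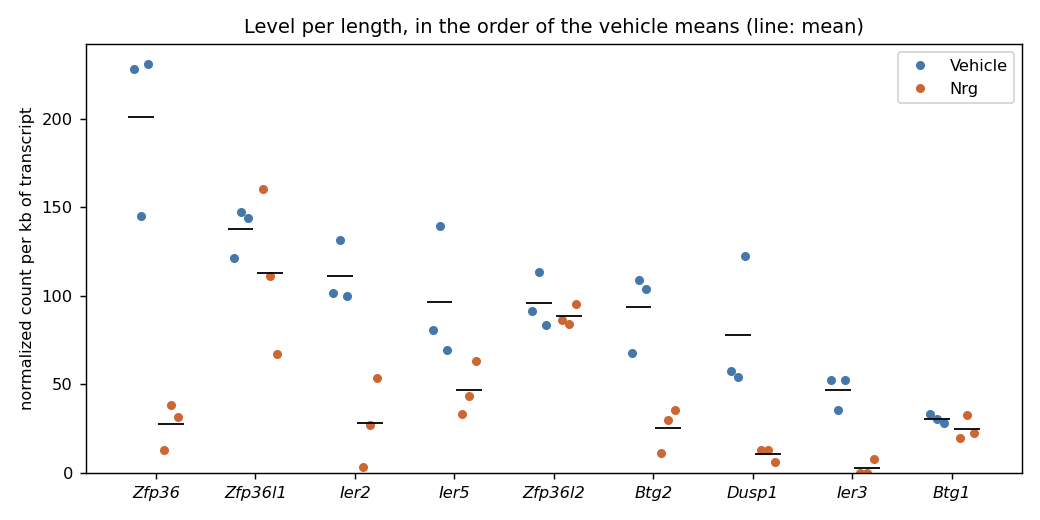
Normalized count per kb of transcript for each member and library, members ordered by their vehicle mean; lines are group means of 3 libraries. Zfp36 has the highest vehicle mean (201.4) and an Nrg mean of 27.7, while Zfp36l2 is at 96.2 and 88.6.

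Among other early response genes, 8 transcription factor genes fell and the rest did not pass. This list and those below were chosen with earlier results of these data known. Their counts and p-values are thus a description only. Of 41 measured genes of this kind outside the 9, 8 fell and 0 rose (limma, adjusted p), where 0.625% and 0.438% of all genes did. A negative difference was seen for 38, with a median of -1.14 against 0.03 over all genes. Another 33 did not pass, and 26 of the 41 lay under an unadjusted p of 0.05, where 13.01% of all genes did. With limma-voom, which held only 24 of the 41, 0 passed. The 8 were Klf4 (-4.32), Fos (-3.21), Klf2 (-2.98), Fosb (-2.83), Junb (-1.79), Egr1 (-1.57), Jun (-1.50) and Nr4a1 (-1.31), with adjusted p from 0.00324 to 0.0499 (limma). Junb was at 9.31, 9.58 and 9.10 in vehicle and 6.88, 7.70 and 8.03 in Nrg. Nr4a1 was at 7.13, 7.22 and 7.28 against 5.66, 6.03 and 6.02, the narrowest spreads among these 8. Jund had a positive difference (0.63), as did Trib1 (0.36) and Npas4 (0.22), without passing. Npas4 rests on 2 Nrg reads, all in Nrg library 2, while the Nrg libraries of Jund and Trib1 all lay above the vehicle libraries. The count of 8 was 5 without vehicle library 1 and 0 without any other single library.

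None of the family relatives, other MAP kinase phosphatase genes and MAP kinase genes passed the test. Among 6 relatives (Btg3, Btg4, Tob1, Tob2, Ier5l and Zfp36l3) 0 passed and 0 lay under an unadjusted p of 0.05, with a median of 0.17. Ier5l differed by 0.53 ± 0.45 (SE) and Btg4 by 0.40 ± 0.40 on 1 Nrg read. Among 9 other MAP kinase phosphatase genes 0 passed, 1 lay under an unadjusted p of 0.05, and the median was 0.01. Dusp7 differed by 0.66 ± 0.30 and Dusp4 by 1.02 ± 0.51 (SE), both toward Nrg, and Dusp6 by -0.59 ± 0.31. Among 16 MAP kinase cascade genes 0 passed and 1 lay under an unadjusted p of 0.05 (median -0.17), with Map2k3 at -1.30 ± 0.55 and Map2k6 at 0.74 ± 0.50 (SE). With limma-voom 0 passed, but that fit held only 2 of the 6 relatives, 4 of the 9 phosphatase genes and 8 of the 16 cascade genes.

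None of the measured genes of the decay machinery that ZFP36 and BTG proteins recruit passed either. Of 17 genes for deadenylation (CCR4-NOT and PAN subunits and poly(A) binding proteins) 0 passed and 2 lay under an unadjusted p of 0.05, with a median of -0.16. Cnot6l, a catalytic deadenylase subunit, had the smallest p, at -2.09 ± 0.61 (SE) on 3 Nrg reads (adjusted p = 0.105, limma), followed by Pan2 at -1.44 ± 0.67. Cnot7, the subunit that BTG proteins bind, differed by 0.55 ± 0.35 and the scaffold Cnot1 by -0.05 ± 0.40 (SE). Of 11 decapping and exonuclease genes 0 passed, 0 lay under an unadjusted p of 0.05, and the median was -0.44. Ddx6 differed by -0.57 ± 0.30 and Patl1 by 0.68 ± 0.36 (SE). Of 11 genes for other proteins that bind AU-rich or related elements 0 passed and 2 lay under an unadjusted p of 0.05 (median 0.10), with Hnrnpd at 0.84 ± 0.34 and Tial1 at -0.72 ± 0.33 (SE). With limma-voom 0 passed among the 10 deadenylation, 5 decapping and exonuclease and 8 AU-rich binding genes that fit held.

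Of 11 measured transcripts known to be bound by ZFP36 proteins, 1 fell, and 3 lay under an unadjusted p of 0.05. It was Ccl3, a chemokine of microglia and macrophages, from 6.78 ± 0.26 to 3.83 ± 0.56 (SD, n = 3 each), differing by -2.95 ± 0.43 (SE; limma adjusted p = 0.00324). The list median was -0.28, and 5 of the 11 had a positive difference and 6 a negative one. Of the positive genes only Vegfa (0.29) was well covered in Nrg, with 225 reads. Csf2, Ptgs2, Cxcl1 and Il6 rest on 3, 7, 1 and 1 Nrg reads. On the negative side Ccl3, Tnf and Cxcl2 rest on 8, 8 and 1, so the split in sign is not a measured one. The call of Ccl3 was lost without any single library other than vehicle library 1, and limma-voom, with 3 of the 11, made 0 calls. Ccl2 (-1.60 ± 0.55 SE) and Il1b (-1.58 ± 0.59 SE) did not pass, and these rest on 2 and 6 Nrg reads. Of 20 genes for upstream regulators (SRF and its partners, CREB family, FOXO, p53, HSF1, the glucocorticoid receptor, NF-κB) 0 passed and 4 lay under an unadjusted p of 0.05, with a median of 0.04 and 0 of the 14 in the limma-voom fit passing there. Elk3 differed by -1.41 ± 0.46 and Foxo1 by 0.70 ± 0.28 (SE), and Srf itself by -0.58 ± 0.30. Of 12 heat shock genes 3 fell, Hspb1 (-3.27), Hspa1a (-3.71) and Hspa1b (-4.29), with adjusted p of 0.00725, 8.74e-05 and 0.000134 (limma), and the list median was -0.32. The other 9 did not pass, and 0 of the 11 in the limma-voom fit passed there. The count of 3 was 2 without vehicle library 1 or 3 and 0 without vehicle library 2 or any single Nrg library. Reads of the near-identical Hspa1a and Hspa1b may be split uncertainly between them.

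**Figure D4:**
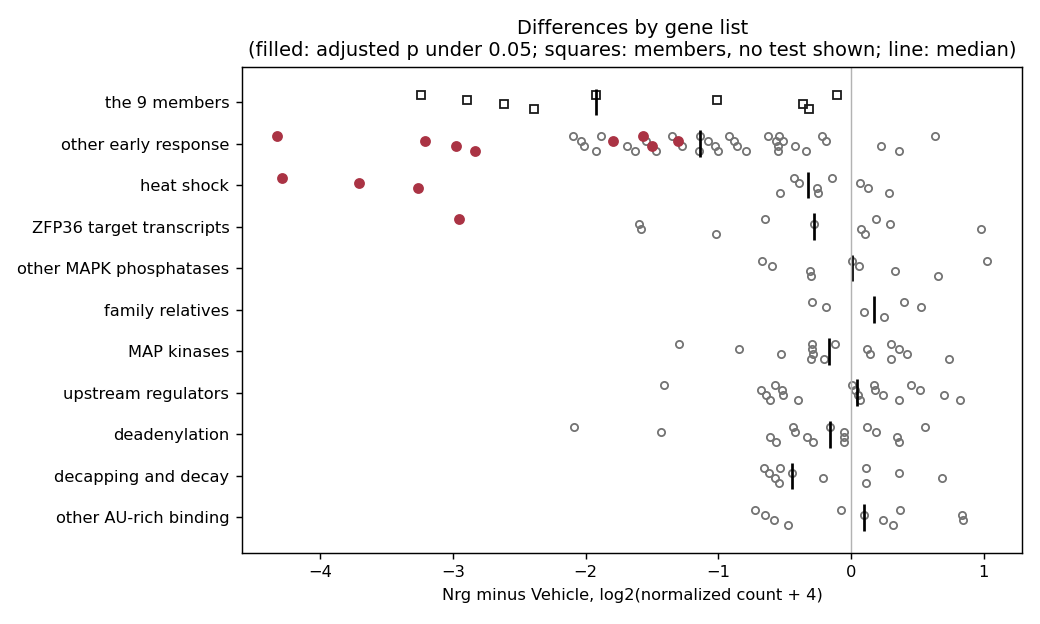
Nrg minus vehicle difference on the log2(normalized count + 4) scale for the 9 members and the genes of each list; filled points passed an adjusted p of 0.05 in the fit over all genes (limma), squares are the members, shown without a test, and lines are medians. The other early response genes lie mostly below 0 (median -1.14), while the deadenylation (-0.16) and MAP kinase phosphatase (0.01) lists lie around it. Medians of the decapping and decay (-0.44), heat shock (-0.32) and ZFP36 target (-0.28) lists are also below 0.

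Profiles were compared by the root mean square difference between log2 values centred on their mean over the 6 libraries, among the 5540 genes with at least 10 reads in every library. Junb was among the 3 nearest genes for Zfp36 (0.69), Btg2 (0.28), Ier2 (0.69) and Ier3 (0.88). The others nearest to Zfp36 were P2ry12 (0.69), a purinergic receptor gene of microglia, and Enpp2 (0.70). Btg2 was followed by Slco2b1 (0.37) and Srgap2 (0.37), Ier2 by Egr1 (0.83) and Slco2b1 (0.84), and Ier3 was nearest to Enpp2 (0.86) and Bsg (0.87). Dusp1 lay near Slc38a2 (0.35) and Enpp2 (0.48). Ier5 was nearest to Ptgds (0.15) and Mpeg1 (0.17), a macrophage gene. Zfp36l1 lay near Ppp1r15a (0.06), Zfp598 (0.07) and Yes1 (0.07). Zfp36l2 lay near Ccdc91 (0.06), Gpd1l (0.07) and Gng12 (0.07), and Btg1 near Rasgrp1 (0.09), Phyhd1 (0.09) and Bcar1 (0.11). Zfp36, Btg2, Ier2, Ier3 and Dusp1 have under 10 reads in at least 1 Nrg library, so their distances also carry counting error. The same read minimum kept these members, and genes such as Fos and Klf2, out of the genes compared. With a minimum of 3 reads, Junb stayed among the 3 nearest genes for Btg2 only.

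Markers of other cell types differed between the groups beside these members. Microglial markers fell for 8 of 12 genes, with a summed normalized count of 8040 to 14060 in vehicle and 2914 to 3956 in Nrg, and endothelial markers for 8 of 11, with 661 to 3246 against 134 to 158. Choroid plexus markers fell for 4 of 7 (1562 to 4881 against 158 to 231, Kcne2 with 0 Nrg reads) and erythroid markers for 4 of 4 (3291 to 9484 against 438 to 1994). Pericyte and smooth muscle markers fell for 1 of 8 (204 to 465 against 61.3 to 109, Kcnj8 with 0 Nrg reads), and border macrophage markers for 0 of 6, with 4 under an unadjusted p of 0.05 (137 to 293 against 39.5 to 112, Ms4a7 with 0 Nrg reads). Astrocyte, neuron and oligodendrocyte markers had 0 of 8, 0 of 8 and 0 of 9 called, and 4, 4 and 2 under an unadjusted p of 0.05. The summed astrocyte level was 25825 to 37961 in vehicle and 47251 to 47711 in Nrg, the neuronal 2299 to 4314 against 5955 to 8576, and the oligodendrocyte 91265 to 188600 against 106390 to 139260. Of 9 neural progenitor markers 1 rose (Sox1, 1.96, adjusted p = 0.0194, limma), and Nes differed by -1.65. The list median was 0.05, with 5 positive and 4 negative differences. The sum was 970 to 1334 against 1700 to 2048. In Nrg it rested mostly on Sox1, Hopx and Sox2, with 425, 417 and 410 reads against 24 for Nes, the next. Markers of mature cell types thus stood beside progenitor markers in the sorted cells of both groups. Among the markers that the limma-voom fit held (11 microglial, 7 endothelial and 3 choroid plexus genes among them) 0 passed, and without vehicle library 2 or any single Nrg library 0 of all genes were called. The part of these cell types, of depth and of the heat shock genes in the members' differences was not tested.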

How the data were processed

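RNA-seq values of 6 libraries, 3 vehicle and 3 Nrg, were read from the authors' deposited table, whose values are on a log2 scale. Trimmomatic and Bowtie2 are named in the submitters' processing notes; their versions, the counter, strand setting, genome build and normalization were not found in the labels. Of 27102 genes, 6779 were blank in every library and 20323 were analysed. After unlogging and subtraction of 4, every value was a whole multiple of 1 step per library (100% within 0.02 of a read), so the values were read as log2(normalized count + 4) and whole reads were recovered; this reading comes from the values. A read was worth 0.0605 to 5.17 normalized counts.

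All genes were fitted with limma 3.58.1 in R 4.3.3 (intensity trend, group as the only term) and p-values adjusted over all of them; the call threshold was 0.05. Intervals are 95% exact Clopper-Pearson and cover counting error only. The members and lists were chosen with earlier results of these data known. The genes named are all members, up to 8 called genes of each list or else the 2 with the smallest p, the 3 nearest genes of each member (a few are not reported here), and a few more (the rest of the family relatives, Cnot1, Cnot7, Dusp6, Srf, Jund, Trib1, Npas4, Ccl2, Il1b and the markers without a read) chosen after their values were seen. Symbols of 4 listed genes were taken in their newer form, and Fosl1, Il10 and Hbb-bt had no value. Protein sequences were not used here. Alternatives were quantile normalization, median centring, a pseudocount of 1, a mean normalized count of at least 50, limma-voom, a replicate block, a depth term, and libraries left out.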

Additional observations from a re-analysis of the deposited data

How the results depend on the processing

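The number of genes called, 216 with all libraries, and the number of other early response genes called, 8, depended on nearly every choice. They were 65 and 5 with quantile normalization, 129 and 5 with a pseudocount of 1, 49 and 5 when a mean of 50 normalized counts was required, and 1 and 0 with limma-voom. Centring on library medians gave 499 genes. Both counts were 0 with depth class as a term and with vehicle library 2 or vehicle library 3 alone against Nrg, where the lone library is assumed to vary like the others. Leaving out each library in turn gave 0 to 56 genes and 0 to 5 early response genes, the higher values without vehicle library 1 and 4 genes without vehicle library 3. With the replicate number as a block they were 627 and 13. Same-numbered libraries did not deviate together (correlations of -0.27, -0.07 and -0.30). With 3 libraries per group of unequal depth, this gives no sign of a pairing but cannot exclude one. The cause of these changes was not tested. Among the members, picked on this contrast, the difference turned positive in an alternative only for Zfp36l2, at 0.107 after median centring, 0.0798 with vehicle library 3 alone, and -0.201 to 0.0179 when each library was left out in turn, the positive value without vehicle replicate 2. The nearest gene stayed the same for 3 of 9 members when 3 reads per library were required in place of 10, and Fos was then nearest to Zfp36 (0.47) and Ier2 (0.54). Depth limits Ier3, Ier2 and Dusp1 most.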
